A study of Mus musculus with 9 samples.

Results

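ILC1-like cells are the liver-resident type of group 1 innate lymphocyte, and 141 of them were found among the 8562 cells of 9 dissociated mouse livers. They were selected on measured counts of UMIs, the molecular tags that let each captured RNA molecule be counted once. A cell had to hold 200 or more genes, at least 2 UMIs of the NK cell receptor genes Ncr1, Klre1 and Klrb1c, and at least 1 UMI of Cd7, Xcl1, Gzmc and Cxcr6. It could hold none of Cd3d and Cd3e (T cells), of Cd79a (B cells) or of Klra4, Klra8 and Cma1 (circulating NK cells), and had to hold fewer than 5 UMIs of C1qa, C1qb and C1qc (macrophages). The genes of this rule are given below as a description, without a test, and enter no count of tested or called genes.

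The study asked how the liver microenvironment changes when the transcriptional co-activator YAP is switched on. All 9 mice were C57BL/6, carried a ROSA26-rtTA-IRES-EGFP transactivator and ate doxycycline food. The 2 WT mice lacked the YAP transgene and were fed for 7 days, the 4 YAP3d mice (ROSA26-rtTA-IRES-EGFP; tetYAP) for 3 days and the 3 YAP7d mice of the same genotype for 7 days. The methods name a cross with Alb-Cre, a driver that is active in hepatocytes, and the WT and YAP3d mice differed in the length of doxycycline feeding as well as in genotype. Each library came from 1 mouse and was the unit of replication. In the ILC1-like cells Yap1 itself had 1 UMI, in YAP3d replicate 4, and 0 UMIs in the other 8 libraries.

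Group 1 innate lymphocytes kill target cells and release interferon gamma without an antigen receptor. Conventional NK cells circulate, depend on the transcription factor EOMES and carry many receptors of the Ly49 (Klra) family. ILC1s stay in the sinusoids of the liver, depend on T-bet (Tbx21), and are known for CD49a (Itga1), TRAIL (Tnfsf10), CD200R1 and CXCR6. In bulk or summed counts, fewer cells of a type and less RNA per cell cannot be told apart, so levels below are always within the summed counts of 1 class of cells.

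Both kinds of lymphocyte were found in the same gate. The NK and ILC gate, which is the rule without its Klra and residence criteria, held 359 cells, of which 141 were ILC1-like, 211 had at least 1 UMI of Klra4, Klra8 and Cma1 (conventional NK-type) and 7 were neither. The ILC1-like cells numbered 16 and 25 in WT replicates 1 and 2, then 10, 12, 4 and 33 in YAP3d replicates 1 to 4, and 17, 4 and 20 in YAP7d replicates 1 to 3. They held 16414 to 160030 UMIs in sum per library. Their median depth per library averaged 4338 UMIs per cell for the 2 WT libraries (SD 42.8), 4415 for the 4 YAP3d libraries (SD 435) and 6791 for the 3 YAP7d libraries (SD 136), so that YAP7d cells were read more deeply than the rest.

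The rule was not sharp on every side. Of the members, 5 held exactly 2 UMIs of the NK genes, and 33 cells missed the rule by holding 1 such UMI. Only 2 members held a single UMI of Cd7, Xcl1, Gzmc and Cxcr6, and the median member held 24. There were 31 cells that missed it through 1 UMI of Cd3d and Cd3e alone and 363 that missed it through 2 or more. A further 16 cells missed it through a single UMI of Klra4, Klra8 and Cma1. On the side of the macrophage genes, 59 of the 141 members held 1 to 4 UMIs of C1qa, C1qb and C1qc, and 21 cells were left out by 5 or more alone. Scrublet called 2 members doublets, which were kept, and 1 member carried a cell barcode that another library also held.

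The genes of the rule gave the following picture. Ncr1, which encodes the activating receptor NKp46, was found in 135 of the 141 cells. Cd7, a surface glycoprotein, was found in 134 and Xcl1, a chemokine for cross-presenting dendritic cells, in 129. Cxcr6, the receptor that holds lymphocytes in liver sinusoids, was found in 67 cells, and Gzmc, a granzyme, in 34. The commonest combinations of the 4 residence genes were Cd7, Xcl1 and Cxcr6 together in 45 cells, Cd7 with Xcl1 in 44, and all 4 genes in 20. Another 11 cells held Cd7 alone and 6 held Xcl1 alone, so 17 members rested on 1 residence gene. Of the 211 conventional NK-type cells, 132 held Cd7 (62.6%) and 137 held Xcl1 (64.9%), whereas 5 held Cxcr6 and 6 held Gzmc. Members with only Cd7, only Xcl1 or only these genes together thus held no residence gene that was rare in conventional NK-type cells.

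The levels of these genes were uneven across libraries. Cxcr6 had 406 and 373 CPM (the UMIs of the summed cells, scaled to the same total in each library) in the WT libraries, 215, 331, 670 and 409 CPM in YAP3d, and 59.1, 0 and 75.0 CPM in YAP7d. Cd7 had 2611 and 3029 CPM in WT, 2247, 2429, 1645 and 3602 CPM in YAP3d, and 1377, 647 and 1169 CPM in YAP7d. For both genes the 3 YAP7d libraries lay below all others. Gzmc ran from 0 CPM in YAP7d replicate 2 to 1100 CPM in YAP3d replicate 1, and the YAP3d and YAP7d libraries overlapped.

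The label was checked on ILC1 genes that the rule did not use. Tnfsf10 was found in 38 ILC1-like cells (27.0%) against 3 conventional NK-type cells (1.42%), Cd200r1 in 31 against 1, Itga1 in 22 against 5 and Tmem176a in 36 against 8. In B cells, which should lack these transcripts, Tnfsf10 was found in 2.03%, Cd200r1 in 1.11%, Itga1 in 2.21% and Tmem176a in 6.92% of 1084 cells, at a median of 3297.5 UMIs per cell against 4798 in ILC1-like and 5108 in conventional NK-type cells. The shares in ILC1-like cells lay above those of B cells for all 4 genes. In conventional NK-type cells they lay below the B cells for Tnfsf10, Cd200r1 and Tmem176a (3.79%) and close to them for Itga1 (2.37%). The CXCR6 T cells (at least 2 UMIs of Cd3d and Cd3e and 1 of Cxcr6) held these transcripts as well, Tnfsf10 in 15.3% of 766 cells, Cd200r1 in 6.92%, Itga1 in 10.8% and Tmem176a in 21.3%, the last close to the 25.5% of ILC1-like cells. After every cell was thinned to 1500 UMIs the shares of Tnfsf10 were 10.4% in ILC1-like, 0.952% in conventional NK-type, 0.927% in B and 5.42% in CXCR6 T cells.

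Other defining genes were rare or absent. Zfp683, which encodes the residence factor HOBIT, was found in 1 of the 141 cells and Itgae in 1. Eomes was found in 24 cells, against 126 of the 211 conventional NK-type cells. Of the markers of ILC2s and ILC3s, Il1rl1, Il13, Il5, Il23r and Il17a were at 0 UMIs in every library, and a count of 0 in 141 cells allows up to 2.13% of cells with a UMI, which sets no limit on cells that express the gene. Gata3, a factor of ILC2s that other lymphocytes also use, was found in 39 ILC1-like and 56 conventional NK-type cells.

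Promoter sequence is shown for 4 genes. They are Ncr1 and Xcl1 of the rule, and Cd3g with its neighbour Cd3d, which the rule kept at 0 UMIs. Ncr1 was as frequent in conventional NK-type as in ILC1-like cells, and the promoters of Cd7, Gzmc and Cxcr6 are not shown. Each line gives the 250 bases before the start site, 5′ to 3′ on the strand of the gene, from RefSeq on GRCm38.p6. Capitals mark the letters TGTGGT or their reverse ACCACA, which RUNX factors bind, and TCACAC or its reverse GTGTGA, the core bound by the T-box factors T-bet and EOMES. The first occurred in the same window of 14.05% of 32851 promoters and the second in 12.29%, and matches of the 2 motifs did not overlap. The Ncr1 window (chr7:4337465-4337714, plus strand) held 2 RUNX matches and 1 T-box match, and that of Xcl1 (chr1:164935523-164935772, minus strand) held 1 of each. The windows of Cd3g (chr9:44980432-44980681, minus strand) and Cd3d (chr9:44981536-44981785, plus strand) held 0 of either. A match describes the letters and does not show that a factor was bound.
Ncr1: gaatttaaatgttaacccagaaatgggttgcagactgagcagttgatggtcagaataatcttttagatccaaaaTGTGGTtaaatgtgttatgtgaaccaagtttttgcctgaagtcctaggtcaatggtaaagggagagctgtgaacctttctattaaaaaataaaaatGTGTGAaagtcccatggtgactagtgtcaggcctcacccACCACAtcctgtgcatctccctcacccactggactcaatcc
Xcl1: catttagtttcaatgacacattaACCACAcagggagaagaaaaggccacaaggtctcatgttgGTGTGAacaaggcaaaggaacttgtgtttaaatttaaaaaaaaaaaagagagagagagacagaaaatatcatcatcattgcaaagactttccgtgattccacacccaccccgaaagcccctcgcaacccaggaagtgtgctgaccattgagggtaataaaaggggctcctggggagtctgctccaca
Cd3g: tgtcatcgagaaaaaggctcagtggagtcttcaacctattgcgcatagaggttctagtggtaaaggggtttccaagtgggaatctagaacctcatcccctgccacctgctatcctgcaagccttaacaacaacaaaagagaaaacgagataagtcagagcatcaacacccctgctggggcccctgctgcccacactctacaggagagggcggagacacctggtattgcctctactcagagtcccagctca
Cd3d: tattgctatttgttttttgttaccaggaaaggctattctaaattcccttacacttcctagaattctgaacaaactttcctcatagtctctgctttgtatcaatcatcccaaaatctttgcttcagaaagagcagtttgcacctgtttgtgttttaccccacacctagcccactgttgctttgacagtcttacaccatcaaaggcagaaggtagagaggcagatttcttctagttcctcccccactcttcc

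Cd3g was found in many of the ILC1-like cells. This gene encodes the gamma chain of the CD3 complex, lies on chromosome 9 at 44969572 to 44980431 (GRCm38.p6) and starts 1355 bases from the start of Cd3d, head to head. The rule required 0 UMIs of Cd3d and Cd3e and did not use Cd3g, and 64 of the 141 ILC1-like cells (45.4%) held Cd3g, and 43 of them held 5 or more Cd3g UMIs. Among conventional NK-type cells 23 of 211 held it (10.9%), among CXCR6 T cells 750 of 766, and among B cells 6.64%. In that order, and thinned to 1500 UMIs, the shares were 35.8%, 4.29%, 84.9% and 3.15%.

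Other T cell transcripts were found with Cd3g in these cells to differing extents, Cd3d and Cd3e being at 0 by the rule. Outside the NK and ILC gate, 517 cells with 5 or more Cd3g UMIs held under 2 UMIs of the NK genes, and 0 of them lacked both Cd3d and Cd3e, which allows a share of up to 0.580% of cells without a UMI of either. Of the 64 ILC1-like cells with Cd3g, 0 held Cd8a, 0 held Cd8b1, 0 held Cd6, 1 held Cd5 and 2 held Cd4. The T cell signalling adaptor Lat was found in 30 of them (46.9%) and in 21 of the 77 members without Cd3g (27.3%), and the costimulatory receptor Cd28 in 11 and 45. Both transcripts also occurred in conventional NK-type cells, at 37.4% for Lat and 28.9% for Cd28. Of the 64 cells with Cd3g, 63 held Tyrobp and 63 held Fcer1g, the adaptor chains of NK receptors. T cell receptor genes were not analysed here. Of the 535 cells that met every criterion other than that on Cd3d and Cd3e, 338 held 5 or more Cd3g UMIs. Of these, 43 held 0 UMIs of Cd3d and Cd3e, 9 held 1 UMI and 286 held 2 or more.

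Members with and without Cd3g also differed in other genes, given here as a description because the split was made after the counts were seen. Eomes was found in 2 of the 64 cells with Cd3g and in 22 of the 77 without. Cxcr6 was found in 40 and 27 cells (62.5% and 35.1%), Tnfsf10 in 24 and 14, Itga1 in 15 and 7, and Gzma in 60 and 52. Tcf7, a factor of less differentiated lymphocytes, was found in 5 and 17 cells and Il7r, the interleukin-7 receptor, in 5 and 15. The median depth was 4430 UMIs with Cd3g and 5606 without, so the higher shares of Cxcr6, Tnfsf10 and Itga1 stood in the shallower cells. The split also followed the groups, since 9 of the 64 cells with Cd3g and 32 of the 77 without were from YAP7d. Within groups, Cxcr6 was found in 15 of 23 cells with and 9 of 18 without Cd3g in WT, in 22 of 32 and 12 of 27 in YAP3d and in 3 of 9 and 6 of 32 in YAP7d. Eomes was found in 1 of 23 and 2 of 18, in 1 of 32 and 5 of 27, and in 0 of 9 and 15 of 32, so that 15 of its 22 cells without Cd3g were from YAP7d.

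**Figure D1:**
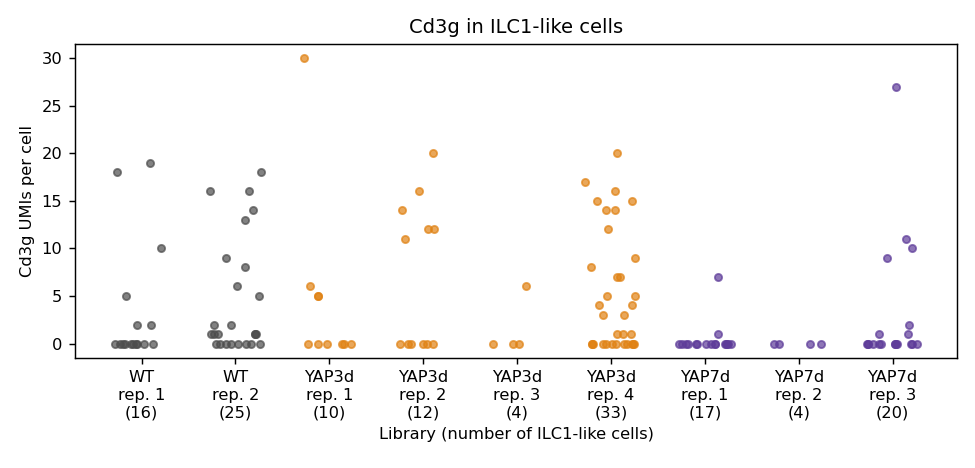
Cd3g UMIs per ILC1-like cell (vertical axis) for each of the 9 libraries (horizontal axis, with the number of cells), 1 point per cell and coloured by group. Cells with 5 or more UMIs occur in 8 libraries, and YAP7d replicate 2 has none among its 4 cells.

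Cells with Cd3g were spread unevenly over the libraries. It was found in 6 of 16 and 17 of 25 cells of the WT libraries, in 4 of 10, 6 of 12, 1 of 4 and 21 of 33 cells in YAP3d, and in 2 of 17, 0 of 4 and 7 of 20 cells in YAP7d. In the summed counts that is 988 and 1046 CPM in WT, 1100, 1341, 366 and 1254 CPM in YAP3d, and 67.6, 0 and 381 CPM in YAP7d. The YAP7d libraries lay below the WT libraries, and YAP3d replicate 3, with 4 cells, fell within their range. The difference between YAP7d and YAP3d was -2.28 on the log2 scale (SE 0.49, edgeR adjusted p 0.0729), which did not pass the threshold of 0.05. The Cd3g value depended on single libraries, and was -4.15 without YAP7d replicate 3 (edgeR adjusted p 0.0003025) and -1.49 without YAP7d replicate 1 (edgeR adjusted p 0.0439). It was -2.28 in DESeq2 (adjusted p 0.0004879), and over all alternatives the adjusted p ran from 7.303e-06 to 0.179.

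The next question was what sets ILC1-like cells apart from conventional NK-type cells of the same livers. Each class of each library gave 1 summed profile, and the profiles were compared with the library as a block in the 7 libraries with at least 5 cells of both classes, which left out YAP3d replicate 3 and YAP7d replicate 2. The genes of the rule were left out, and the classes were made from transcripts of the same cells, so the test describes the classes as gated. Of 1606 genes tested, 75 were higher in ILC1-like cells (4.67%) and 64 lower (3.99%) at an adjusted p below 0.05 in edgeR, and 46 and 38 in DESeq2. Without the ILC1-like cells holding Cd3g, and with the conventional NK-type cells unchanged, 25 were higher and 20 lower of 1099.

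The ILC1 identity list held several of the genes with the smallest p on the higher side. Rgs1, a brake on chemokine receptor signalling that marks resident lymphocytes, had 4746 and 4503 CPM in ILC1-like cells of WT, 2582, 2823 and 4974 in YAP3d and 1242 and 1587 in YAP7d, against 873 and 741, 499, 603 and 1177, and 233 and 286 CPM in conventional NK-type cells of the same libraries. It was higher in ILC1-like cells in 7 of 7 libraries, by 2.39 on the log2 scale (standard error 0.09, adjusted p 1.725e-14 in edgeR), and the 7 libraries had the same order in both classes, with YAP7d lowest. Ltb, which encodes lymphotoxin beta, ranged from 269 to 810 CPM in ILC1-like cells and from 33.8 to 169 CPM in conventional NK-type cells, so the classes did not overlap (log2 difference 2.35, standard error 0.18, adjusted p 1.357e-08 in edgeR). Cd160, a receptor for HVEM and class I molecules, ranged from 169 to 741 CPM and from 32.3 to 225 CPM, and was higher in 7 of 7 libraries although the ranges met (log2 difference 1.97, standard error 0.23, adjusted p 3.58e-06 in edgeR).

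The other genes named on the higher side rose in each of the 7 libraries too. Tmem176b, a membrane protein of ILCs and myeloid cells, was at 155 ± 50.9 CPM (SD, n = 7) against 9.92 ± 17.1 CPM, and S100a4, a calcium-binding protein, at 632 ± 227 against 121 ± 79.9 CPM. Cxcr3, a chemokine receptor for interferon-induced ligands, was at 202 ± 68.4 against 82.0 ± 65.7 CPM, and Il21r, the interleukin-21 receptor, at 172 ± 73.6 against 43.3 ± 31.9 CPM. Hopx (log2 difference 1.47) and the interferon-stimulated gene Isg15 (log2 difference 1.66) were also higher, as was Cd3g (log2 difference 3.62, standard error 0.32, adjusted p 6.838e-08 in edgeR).

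The NK identity list held most of the genes named on the lower side. Irf8, a transcription factor of NK cell maturation, had 159 and 182 CPM in WT, 215, 221 and 235 CPM in YAP3d and 372 and 319 CPM in YAP7d, against 591 to 1421 CPM in conventional NK-type cells. In these 7 libraries the classes did not overlap, although YAP7d replicate 2, which was not fitted, had 799 CPM in its 4 ILC1-like cells (log2 difference -1.81, standard error 0.16, adjusted p 6.838e-08 in edgeR). Zeb2, a transcriptional repressor that NK cells need to mature, was at 46.0 against 242 CPM, Eomes at 52.9 ± 39.7 against 211 ± 101 CPM and the homing factor Klf2 at 528 ± 208 against 1447 ± 576 CPM. Prf1, the pore-forming perforin, fell by 1.40 on the log2 scale. Rasgrp2 (-1.34) and Klri2 (-1.48) were lower as well. Without the cells holding Cd3g, the log2 difference was -1.31 instead of -1.96 for Eomes (edgeR adjusted p 0.0598, range over alternatives 1.136e-11 to 0.0598) and -1.24 for Klri2 (edgeR adjusted p 0.0814, range 8.729e-11 to 0.0814), and neither was called. Klra7 (-2.53) and Klra3 (-2.31) belong to the Ly49 family, whose near-identical copies can share reads with each other and with the genes of the rule, so their values are uncertain.

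**Figure D2:**
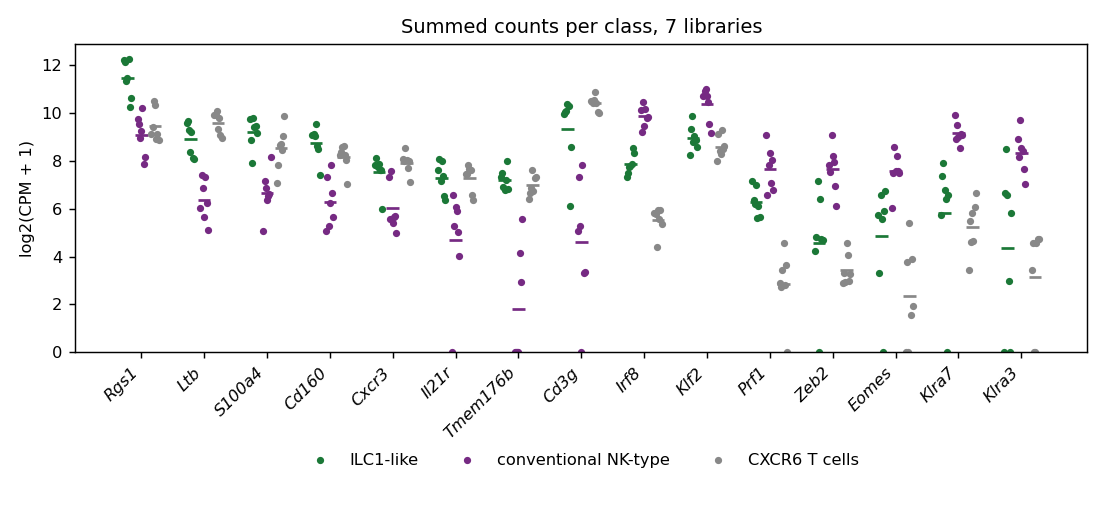
Levels of 15 genes as log2(CPM + 1) of the summed counts, in ILC1-like, conventional NK-type and CXCR6 T cells, 1 point per library (n = 7) and a bar at the mean. The 8 genes on the left lie higher in ILC1-like than in conventional NK-type cells of each library and the 7 on the right lower.

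The gene lists gave the same picture in numbers. Of the 21 ILC1 identity genes, 8 passed the filter on low counts, 6 were higher (Rgs1, Ltb, Tmem176b, Cd160, Il21r and Cxcr3) and 0 lower, with a median log2 difference of 1.90 beside 0.01 over all genes tested. Over all 21, the mean level was higher in ILC1-like cells for 18. Of the 19 NK identity genes, 11 passed the filter, 0 were higher and 10 lower (median -1.47), and the mean level was lower for all 19. Genes that passed the filter through 1 class alone had to differ, so these counts carry no test.

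Effector genes split in both directions, and the counts stand beside 4.67% higher and 3.99% lower over all genes. Of 13 cytotoxic genes 10 were tested, 3 were higher (Gzmb, Ctsw and Srgn) and 5 lower (Prf1, Gzma, Nkg7, Serpinb9 and Serpinb6b). Gzmb, a granzyme that starts cell death in target cells, differed by 0.75 on the log2 scale (standard error 0.22, adjusted p 0.0358 in edgeR) and Gzma, its tryptase relative, by -0.65 (standard error 0.16, adjusted p 0.0112), each in 6 of 7 libraries. Of 29 receptor genes 18 were tested, 3 were higher (Cd160, Klrc1 and Cd27) and 3 lower (Cd247, Il18rap and Ifngr1). Klrc1, which encodes the inhibitory receptor NKG2A, was at 813 against 288 CPM. Of 22 transcription factors 9 were tested, 0 were higher and 4 lower (Eomes, Irf8, Klf2 and Zeb2). Of 21 interferon-response genes 6 were tested and 4 were higher, Isg15, Ly6e and Bst2 among them, and 0 lower. Of 18 dissociation and heat-shock genes 13 were tested, with Hspa1a higher and Ier2 lower, which is near the share of all genes. Tbx21, which both classes use, was found in 63 ILC1-like and 105 conventional NK-type cells, 44.7% and 49.8%.

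ILC1-like cells were also compared with CXCR6 T cells. The rule asked for NK receptor genes in the first and for Cd3d and Cd3e in the second, so that the test again describes the classes as gated and a difference in NK receptors follows from the gates. In the same 7 libraries 144 of 3020 genes were higher (4.77%) and 198 lower (6.56%) in edgeR, and 108 and 157 in DESeq2. Tyrobp was at 2909 ± 450 against 242 ± 115 CPM (SD, n = 7, log2 difference 3.57, edgeR adjusted p 1.461e-09) and Fcer1g at 3111 ± 545 against 303 ± 119 CPM. Gzma was at 6958 ± 2314 against 1105 ± 2059 CPM, and the chemokines Ccl3 and Ccl4 were at 1883 ± 865 against 148 ± 143 CPM and 5337 ± 2433 against 454 ± 327 CPM. The receptor genes Klrb1b (4.64) and Klrb1a (4.48), Car2 (3.68), Spry2 (2.97) and Cd9 (2.88) had the other large log2 fold changes.

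T cell genes were lower, to differing extents. Cd40lg, the T cell help ligand, had 0 UMIs in the ILC1-like cells of the 7 libraries and 205 ± 85.7 CPM in CXCR6 T cells. Il4 and Cd8b1 were at 0.893 ± 2.36 CPM each against 164 ± 73.3 and 164 ± 111 CPM, and Cd6 was at 0 UMIs in all 141 cells. Bcl11b, the T lineage factor, was at 31.3 against 179 CPM, Icos at 51.9 against 265 CPM, Lat at 103 against 447 CPM and Ly6a at 37.4 against 470 CPM, with Ly6c2, Ifi27l2a and Gramd3 lower too. Cd3g differed least of the 5 T cell markers tested, at 882 ± 474 against 1388 CPM (log2 difference -0.91, standard error 0.24, adjusted p 0.0154 in edgeR). Of 13 cytotoxic genes 11 were tested, 8 were higher and 0 lower, and of 29 receptor genes 23 were tested, 12 were higher and 2 lower.

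Rgs1 was higher than in CXCR6 T cells as well (log2 difference 1.97, standard error 0.25, adjusted p 1.072e-05 in edgeR), whereas Ltb was lower (-0.71, SE 0.12, edgeR adjusted p 0.000305). Of the 21 ILC1 identity genes 16 were tested against the T cells, 4 were higher (Rgs1, Cd200r1, Tnfsf10 and Cd160) and 5 lower (Rora, Il7r, Inpp4b, Ltb and Ckb). Their median difference was -0.13 beside 0.00 over all genes.

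**Figure D3:**
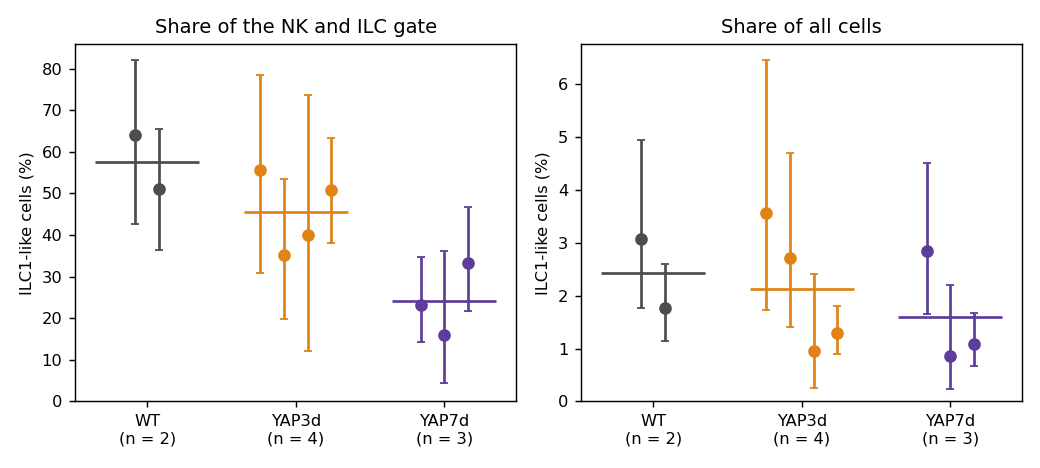
ILC1-like cells as a percentage of the NK and ILC gate (left) and of all cells (right), 1 point per library with its exact 95% Clopper-Pearson interval and a bar at the mean of each group. The 3 YAP7d libraries lie between 16.0% and 33.3% of the gate, below the other 6 libraries, while the shares of all cells overlap.

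The share of ILC1-like cells was then compared between groups. Of the cells in the NK and ILC gate, ILC1-like cells made up 64.0% and 51.0% in WT, 55.6%, 35.3%, 40.0% and 50.8% in YAP3d and 23.3%, 16.0% and 33.3% in YAP7d. The YAP7d libraries lay below all others, and WT and YAP3d overlapped. The exact 95% intervals of single libraries were wide, from 12.2% to 73.8% in YAP3d replicate 3 with 10 gated cells, and cover counting error only. Over the 3 groups the exact permutation test gave p = 0.0175 (adjusted p 0.0349 over the 2 denominators, two-sided). The pairwise differences were -33.3 percentage points between YAP7d and WT (exact p = 0.1, the smallest that 3 against 2 libraries allow), -21.2 between YAP7d and YAP3d (exact p = 0.0571) and -12.1 between YAP3d and WT (exact p = 0.2), and none of the 6 pair tests passed after adjustment (smallest adjusted p 0.3).

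That result rested on some of the cells and libraries. With cells thinned to 1500 UMIs and the whole rule applied anew, the exact permutation test over 3 groups gave p = 0.00952. Of the original classes, 7 ILC1-like cells and 1 conventional NK-type cell were too shallow to enter. The shares of thinned cells holding a gene, given elsewhere, kept the original classes. Leaving the members holding Cd3g out of the gate altogether was not tested. With these members taken out of the ILC1-like count but kept in the gate, YAP7d differed from WT by -8.76 percentage points. The test over 3 groups then gave an exact permutation p of 0.590. It also lost its adjusted threshold without WT replicate 1 (exact p = 0.0607), YAP3d replicate 3 (0.0357), YAP3d replicate 4 (0.0393), YAP7d replicate 1 (0.0429) or YAP7d replicate 2 (0.0429).

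The share of the gate itself varied widely between libraries, from 4.80% and 3.46% in WT over 6.41%, 7.69%, 2.37% and 2.55% in YAP3d to 12.2%, 5.42% and 3.27% in YAP7d, and the groups overlapped. Its means were 4.13 ± 0.946%, 4.75 ± 2.70% and 6.96 ± 4.65% of all cells in WT, YAP3d and YAP7d (SD over 2, 4 and 3 libraries), and conventional NK-type cells took 1.64 ± 0.122%, 2.56 ± 1.79% and 5.23 ± 3.49%. Without YAP7d replicate 1 the YAP7d means were 4.35% for the gate and 3.34% for conventional NK-type cells. ILC1-like cells took 2.42 ± 0.923%, 2.13 ± 1.22% and 1.60 ± 1.08% of all cells. The library values of the last were 3.07% and 1.77% in WT, 3.56%, 2.71%, 0.948% and 1.29% in YAP3d and 2.84%, 0.868% and 1.09% in YAP7d, and the groups overlapped (exact permutation p = 0.686 over the 3 groups).

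The libraries also differed in Gm10709, a predicted gene. It had over 50 CPM in YAP3d replicates 1 and 2 and in the 3 YAP7d libraries (340 to 611 CPM over all cells) and under 50 CPM in the others (3.62 to 11.2 CPM). Among the libraries over 50 CPM, ILC1-like cells made up 45.4% of the gate in YAP3d (n = 2) and 24.2% in YAP7d (n = 3). Among those under 50 CPM they made up 57.5% in WT (n = 2) and 45.4% in YAP3d (n = 2). The order of the groups was the same within each, but WT and YAP7d were never found together.

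Within ILC1-like cells no gene passed the threshold between groups. The fit took the 2 WT, 3 YAP3d and 2 YAP7d libraries with at least 5 ILC1-like cells and tested 2174 genes outside the rule, and edgeR called 0 of them (0.0%) in each of the 3 comparisons. Between YAP7d and WT the smallest adjusted p was 0.0503, 187 genes were higher (8.6%) and 150 lower (6.9%) before adjustment (p below 0.05), and DESeq2 called 33 higher and 15 lower. Between YAP3d and WT 30 were higher (1.38%) and 34 lower (1.56%) without adjustment, and DESeq2 called 0. Between YAP7d and YAP3d 175 were higher (8.05%) and 134 lower (6.16%), and DESeq2 called 33 and 13. The values that follow, for the 7 fitted libraries unless another is named, are given with that limit.

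The genes named toward YAP7d, those with the smallest p, were Npm1, Rbm3, Eif5a, Impdh2 and Tpi1. Npm1, the nucleolar chaperone nucleophosmin, had 512 and 528 CPM in WT, 813, 647 and 506 in YAP3d and 1639 and 1300 in YAP7d (YAP7d minus WT 1.56 on the log2 scale, standard error 0.27, adjusted p 0.0503 in edgeR). YAP7d lay above the rest, and so did YAP7d replicate 2, which was not fitted, at 1256 CPM. Eif5a, a translation factor, was at 1350 ± 169 CPM in YAP7d (SD, n = 2) against 534 ± 107 in WT (n = 2), and Rbm3, a cold-induced RNA-binding protein, at 1554 ± 489 against 490 ± 118 CPM. Impdh2, which makes guanine nucleotides, was at 201 ± 62.7 against 9.10 ± 12.9 CPM, and the glycolytic enzyme Tpi1 at 273 ± 3.30 against 71.9 ± 26.9 CPM.

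The genes named toward WT included Malat1, Rgs1, Jun and Cited4. Malat1, a nuclear long non-coding RNA, had 41390 and 30790 CPM in WT, 27030, 25130 and 32510 in YAP3d and 12050 and 13120 in YAP7d (log2 difference -1.45, standard error 0.23, adjusted p 0.0503 in edgeR). Rgs1 had 4624 ± 172 CPM in WT and 1414 ± 244 in YAP7d (log2 difference -1.63, standard error 0.34, adjusted p 0.0681 in edgeR). Jun, an immediate early factor, was at 744 ± 79.6 against 228 ± 119 CPM, and Cited4 at 179 ± 29.3 against 31.4 ± 8.60 CPM. In each of these genes the YAP7d libraries lay below both WT libraries. Conventional NK-type cells of the same libraries had the same order of WT and YAP7d for Malat1 and Npm1. Malat1 had 32250 and 23720 CPM in their WT and 12430 and 11590 CPM in their YAP7d libraries, and Npm1 had 776 and 638 CPM against 1740 and 1382 CPM. The difference of the changes was called for neither gene.

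**Figure D4:**
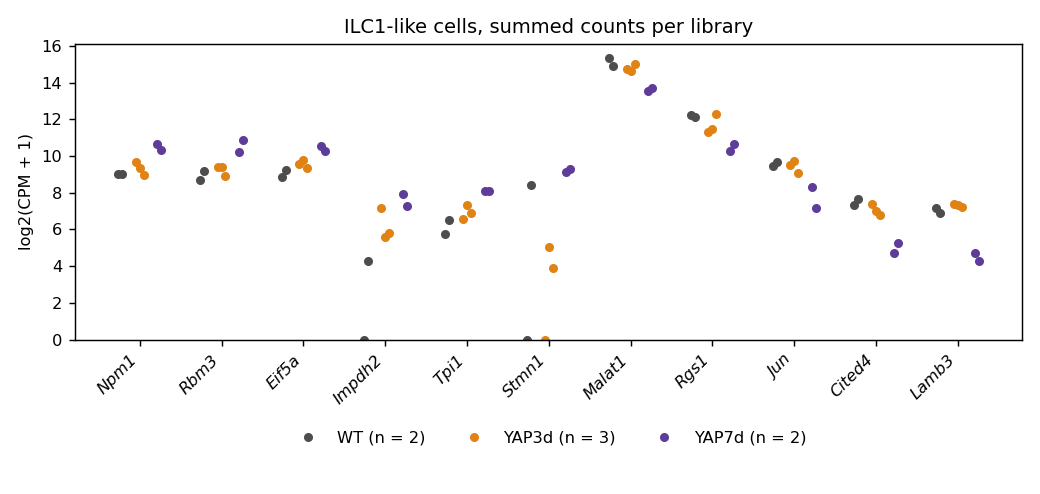
Levels of 11 genes in ILC1-like cells as log2(CPM + 1) of the summed counts, 1 point per library with at least 5 cells (2 WT, 3 YAP3d and 2 YAP7d). For Npm1, Rbm3, Eif5a, Tpi1 and Impdh2 the YAP7d points lie above those of WT, and for Malat1, Rgs1, Jun and Cited4 below, although none passed the adjusted threshold.

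Between YAP7d and YAP3d the named genes were Stmn1, Npm1, Rbm3, Dut and Dctpp1 on the higher side and Lamb3, Malat1, Ccl4, Jun and Cd3g on the lower, with the same YAP7d libraries as above. Stmn1, a microtubule regulator of dividing cells, was at 587 ± 53.7 CPM in YAP7d and 15.1 ± 15.8 in YAP3d (n = 3), though WT replicate 2 had 337 CPM and WT replicate 1 had 0. Dut was at 238 ± 80.9 against 57.8 ± 8.62 CPM and Dctpp1 at 150 ± 62.3 against 7.57 ± 7.91 CPM, and both enzymes clear unwanted nucleotides. Lamb3, a laminin chain, had 25.3 and 18.8 CPM in YAP7d against 167, 158 and 146 CPM in YAP3d, and the groups did not overlap (log2 difference -2.68, standard error 0.47, adjusted p 0.0566 in edgeR). Among named genes the smallest unadjusted p between YAP3d and WT belonged to Cox20, Dnajb1, Lgals3, Mrpl23 and Hspa1a (edgeR adjusted p 0.999). The heat-shock gene Hspa1a was at 792 ± 796 CPM in WT and 119 ± 62.6 in YAP3d, with 1356 CPM in WT replicate 2 and 229 CPM in WT replicate 1.

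Lists that lay to 1 side in YAP7d against WT included MHC class I. Of its 14 genes 13 were tested and 0 were called. At an unadjusted p below 0.05, 7 were lower (H2-K1, H2-D1, H2-Q4, H2-Q6, H2-Q7, H2-T23 and Tap2), with a median of -0.72 beside 0.01 over all genes. The shares of all genes at that level were 8.6% higher and 6.9% lower. H2-K1, a classical presenting molecule, had 3476 and 3311 CPM in WT, 3418, 2902 and 2508 in YAP3d and 1883 and 1606 in YAP7d. The H2-Q genes are close copies and can share reads. Of 21 interferon-response genes 13 were tested, 6 were lower without adjustment (median -1.18), and of 29 receptor genes 23 were tested, 7 were lower and 1 higher (median -0.63). Of 16 glycolysis genes 8 were tested, 3 were higher (Gapdh, Tpi1 and Pgam1) and 0 lower (median 0.82). Gapdh had 300 and 537 CPM in WT, 598, 836 and 686 in YAP3d and 921 and 1106 in YAP7d. In conventional NK-type cells MHC class I summed to 15330 and 17120 CPM in WT and 10550 to 11440 CPM in the 3 YAP7d libraries. Receptor genes summed to 12620 and 12710 against 9591 to 11030 CPM, and glycolysis genes to 2200 and 3028 against 3345 to 3893 CPM. These lists moved the same way in both classes, while interferon-response genes overlapped, at 1035 and 1903 against 1440 to 1826 CPM.

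No gene of the identity or effector lists was called either. Of 21 ILC1 identity genes 11 were tested, 5 were lower without adjustment (Rgs1, Ltb, Il21r, Cd160 and Cxcr3) and 0 higher (median -1.01). In conventional NK-type cells that list summed to 1650 and 1697 CPM in WT and 574 to 741 CPM in the 3 YAP7d libraries. Of 19 NK identity genes 10 were tested, with 2 higher, Irf8 among them, and Klra9 lower (median -0.40). Of 17 cytokine and chemokine genes 6 were tested and 3 were lower (Ltb, Ccl4 and Ccl3, median -0.95), of 13 cytotoxic genes 11 were tested and 1 was lower (Ctsw, median -0.61), and of 20 trafficking genes 11 were tested, 4 were lower and 1 higher (median -0.69). Of 22 transcription factors 10 were tested, with Tbx21 lower and Irf8 higher (median -0.37). Counts of 1 among 10 or 11 genes are close to the shares of all genes (8.6% higher and 6.9% lower). Of 13 genes of TGF-beta signalling 3 were tested and 0 passed without adjustment (median -0.05).

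Dissociation genes and markers of other cells differed in level between groups. The summed levels in this paragraph are of all 9 libraries, with YAP3d replicate 3 and YAP7d replicate 2 at 4 ILC1-like cells each. Of 18 dissociation and heat-shock genes 14 were tested and 8 were lower in YAP7d without adjustment (median -1.09). Over all genes 6.9% were lower and the median was 0.01. The summed level of the 18 genes was 11840 and 18190 CPM in WT, 10690 to 15230 in YAP3d and 7180 to 8902 in YAP7d. The 8 T cell markers, with Cd6 at 0 and Cd3g the largest part in WT and YAP3d, summed to 1235 and 1437 CPM in WT, 792 to 1607 in YAP3d and 190 to 637 in YAP7d, so that YAP7d lay below the other libraries. The 9 endothelial markers summed to 106 and 437 CPM in WT, 31.6 to 935 in YAP3d and 0 to 25.0 in YAP7d. The 9 macrophage markers summed to 106 and 409 CPM in WT, 0 to 450 in YAP3d and 177 to 1512 in YAP7d, and the 6 dendritic cell markers reached 2224 CPM in YAP3d replicate 4 and at most 425 CPM in YAP7d. The 5 neutrophil markers summed to 744 CPM in YAP7d replicate 3 and to 0 to 242 CPM in the other libraries, with Ly6g at 0, and the 4 B cell markers to at most 104 CPM. Hepatocyte markers (11 genes, of which Ahsg, Fgb and Serpina3k were at 0) summed to 47.3 to 305 CPM over the libraries. Without the cells holding Cd3g the difference between YAP7d and WT was -1.67 for Malat1, -1.96 for Rgs1 and 1.73 for Rbm3, each called by edgeR among 655 genes (adjusted p 0.00599, 0.0166 and 0.0468), and 1.02 for Npm1, which was not called (adjusted p 0.12). Over all alternatives the adjusted p ran from 1.715e-05 to 0.559 for Malat1, 0.0004873 to 0.707 for Rgs1, 0.0002987 to 0.578 for Rbm3 and 0.00179 to 0.578 for Npm1. The part of the other signals in these differences was not tested. With a term for libraries over 50 CPM of Gm10709, edgeR called 0 genes in each comparison and 163 passed between YAP7d and WT without adjustment.

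Finally, the change between WT and YAP7d was compared between ILC1-like and conventional NK-type cells. Of 1606 genes, edgeR called 2 for the difference of the changes (0.125%), and for both the change was more negative in ILC1-like cells. Ccl4 (chromosome 11, 83648624 to 83664683), a chemokine that draws in monocytes and T cells, had 7004 and 5076 CPM in ILC1-like cells of WT, 8533, 4527 and 7433 in YAP3d and 2230 and 2556 in YAP7d. In conventional NK-type cells it had 2685 and 2869 CPM in WT, 7950, 5106 and 5709 in YAP3d and 4014 and 3205 in YAP7d. ILC1-like cells were thus above conventional NK-type cells in both WT libraries and below them in both YAP7d libraries, and the 2 changes differed by -1.67 (SE 0.24, edgeR adjusted p 0.00126).

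Gzmb (chromosome 14, 56258836 to 56262334) was the other gene. It had 2876 and 3120 CPM in ILC1-like cells of WT, 2486, 2634 and 3436 in YAP3d and 1047 and 2493 in YAP7d, against 1326 and 806, 1114, 1091 and 1878, and 2352 and 1839 CPM in conventional NK-type cells. The class order turned in YAP7d replicate 1 and not in YAP7d replicate 3, and the changes differed by -1.95 (SE 0.38, edgeR adjusted p 0.0432). Without YAP7d replicate 1 neither gene was called (-1.41 and adjusted p 0.0694 for Ccl4, -1.19 and adjusted p 0.283 for Gzmb in edgeR). Gzmb was also not called without WT replicate 2 (edgeR adjusted p 0.751), YAP3d replicate 2 (0.106), YAP3d replicate 4 (0.0714) or the cells holding Cd3g (0.293). Over all alternatives tried the adjusted p ran from 1.985e-07 to 0.0694 for Ccl4 and from 8.898e-08 to 0.751 for Gzmb. DESeq2 called Ccl4 and not Gzmb.

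**Figure D5:**
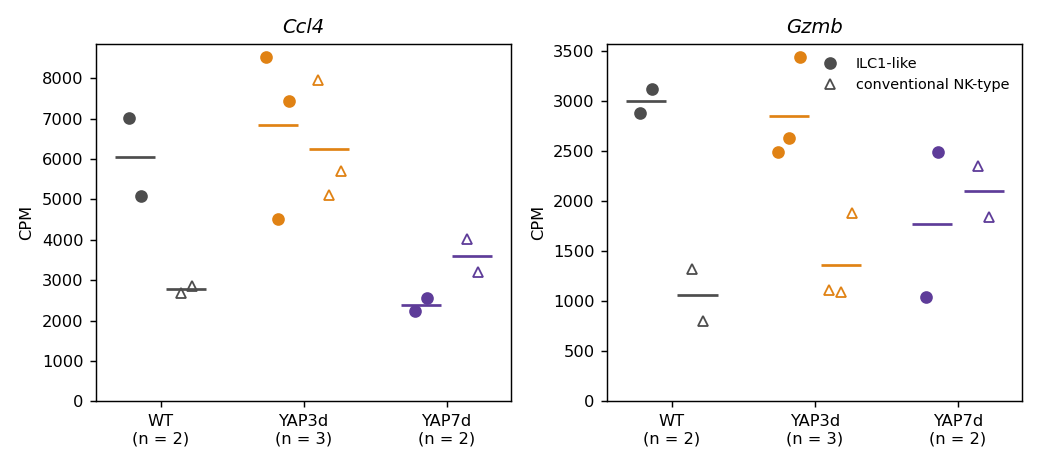
Ccl4 and Gzmb as CPM of the summed counts in ILC1-like (filled circles) and conventional NK-type cells (open triangles), 1 point per library and a bar at the mean, for WT (n = 2), YAP3d (n = 3) and YAP7d (n = 2). In WT the circles lie above the triangles for both genes, and in YAP7d they lie below them for Ccl4.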

How the data were processed

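The authors prepared droplet 3′ libraries from dissociated livers, aligned reads to mm10 and counted them with Cell Ranger, and the deposited table holds raw UMI counts of 27998 genes per cell, with the library in the cell name. The members and gene lists were chosen with earlier results of these data known. Of 8562 cells, 35 with under 200 genes were left out. Doublets (60 called by Scrublet in scanpy 1.11.5, 0.704%) were kept, and 46 barcodes occurred in several libraries. Counts were summed per library and class, filtered with filterByExpr, scaled with TMM and tested in edgeR 4.0.16 (R 4.3.3) by quasi-likelihood, adjusted by the Benjamini-Hochberg method over all genes. Genes of the selection rule were left out of the class fits. Between groups they stayed in the fit and its adjustment and were left out of every count. Libraries with at least 5 cells entered, and the 3 groups shared 1 fit. DESeq2 1.42.0 was the second tool. Shares were compared with exact two-sided permutation tests over libraries. The fits were tested on simulated data. CPM values are of the summed counts, without a prior.

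Genes were named by a rule: at most 10 rises and 10 falls per comparison with adjusted p below 0.05, at least 100 CPM in 1 group or class, and no overlap between groups or the same direction in every library. Where fewer than 5 qualified, the 5 smallest unadjusted p in each direction were used. Haemoglobin, immunoglobulin, mitochondrial, ribosomal and predicted genes were left out. Coordinates and promoters come from RefSeq on GRCm38.p6, the build that mm10 denotes, which held 349 of 351 symbols. Alternatives covered normalization, filters, tools, cell criteria, thinning to 1500 UMIs (270 cells were too shallow), the replicate block and each library in turn. Cells holding Cd3g were left out of the ILC1-like class alone, and stayed in the gate and in the classes compared with it. Some genes that met the rule for naming are not reported here.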

Additional observations from a re-analysis of the deposited data

Results flagged for a closer look

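Ccl4 and Gzmb drew attention because the change between WT and YAP7d differed between 2 classes of cells from the same livers. The difference of the log2 changes, ILC1-like minus conventional NK-type, was -1.67 for Ccl4 and -1.95 for Gzmb in edgeR. For Ccl4 the value ran from -1.98 to -1.40 over the alternatives, and for Gzmb from -2.84 to -1.19. The 4 shares of YAP3d libraries held no value far from the others, and groups of 2 or 3 libraries were not examined for such values.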

How the results depend on the processing

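No alternative reversed a named gene. The share of all cells changed direction without passing a test. YAP3d minus WT was 0.129 percentage points with thinned cells, 0.719 with a replicate block and -0.942 to 0.363 without single libraries. Without cells holding Cd3g, YAP7d minus WT was 0.118 and YAP7d minus YAP3d 0.192. The test of the gate share over 3 groups gave exact permutation p from 0.0143 to 0.0607 without single libraries and 0.590 without cells holding Cd3g. In the latter the cells holding Cd3g left the ILC1-like count and stayed in the gate. No other alternative moved a share test across its threshold.

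Calls between YAP7d and WT, 0 in the report, numbered 48 in DESeq2, 70 without a filter, 15 with at least 2 residence UMIs, 35 with a replicate block, 9 without cells holding Cd3g and 0 to 8 without single libraries (8 without YAP7d replicate 1, 5 without YAP3d replicate 4). For YAP3d minus WT they numbered 10 without a filter, 4 with the replicate block and 0 to 2 without single libraries. For YAP7d minus YAP3d they numbered 46, 79, 10, 21 and 2 in the first order and 0 to 34 without single libraries (34 without YAP7d replicate 1). The cause was not tested. Same-numbered libraries were not shown to pair. Their deviations from group means correlated at 0.112, 0.174 and 0.167 for number 1 and -0.019 for number 2, and in groups of 2 fitted libraries the deviations mirror each other, so this check is weak.

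ILC1-like minus conventional NK-type gave 84 calls in DESeq2, 233 without a filter, 45 without cells holding Cd3g (43 of them among the 139, with Eomes at edgeR adjusted p 0.0598, range 1.136e-11 to 0.0598 over alternatives, and Klri2 at 0.0814, range 8.729e-11 to 0.0814) and 86 to 128 without single libraries (86 without YAP3d replicate 4). ILC1-like minus CXCR6 T cells gave 614 without a filter, 233 without cells holding Cd3g (207 of them among the 342) and 252 to 355 without single libraries. The difference of changes gave 1 call in DESeq2, 7 without a filter, 1 without cells holding Cd3g and 0 to 3 without single libraries (0 without YAP7d replicate 1). The planned term for any count of Gm10709 was not run because each library held some, and the threshold of 50 CPM was chosen after seeing the data. WT and YAP7d had 2 fitted libraries each, and single ILC1-like classes as few as 10 cells, which limits what these tests could detect.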

Other observations

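Transcripts of cycling cells were found in each group. Mki67 or Top2a was found in 1 of 41 ILC1-like cells of WT, 6 of 59 of YAP3d and 11 of 41 of YAP7d. In conventional NK-type cells the counts were 2 of 31, 6 of 66 and 39 of 114, and in B cells 5 of 223, 25 of 703 and 26 of 158. By library they were found in 0 of 16 and 1 of 25 ILC1-like cells of WT, in 2 of 10, 1 of 12, 0 of 4 and 3 of 33 in YAP3d, and in 4 of 17, 1 of 4 and 6 of 20 in YAP7d. Cells of YAP7d were read more deeply. After thinning to 1500 UMIs the ILC1-like counts were 1 of 36, 3 of 57 and 5 of 41, those of conventional NK-type cells 1 of 31, 2 of 65 and 18 of 114, and those of B cells 4 of 222, 10 of 699 and 4 of 158. No test was run on these counts. Of the 42 proliferation genes, 9 were tested between YAP7d and WT, 4 were higher at an unadjusted p below 0.05 (Dut, Stmn1, Gmnn and H2afz), 0 were called in edgeR, and the median was 0.62, beside 8.6% higher and a median of 0.01 over all genes. The 42 genes summed to 1288 and 4703 CPM in the WT libraries, 1538 to 2287 CPM in YAP3d and 5406, 8640 and 4993 CPM in YAP7d, so that WT replicate 2 lay close to YAP7d replicate 3 and WT replicate 1 below YAP3d.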
